A study of Mus musculus with 2 samples.

Results

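The genes described here are 47 genes of mitosis, the spindle and the G2 phase, chosen by a rule that names them and uses no measured value, out of 19720 genes listed in an RNA sequencing table of embryonic mouse forebrain. A gene counts as measured with 20 or more reads over both libraries together, which held for all 47 and for 14366 of the listed genes. The table compares 2 genotypes on a C57BL/6 background: H2AZfl/fl mice, with floxed alleles of the histone variant gene H2A.Z, taken as the control, and H2AZcKO mice, the conditional knockout. Titles give embryonic day 16 and a stage field gives day 12, so the age is uncertain. The sources used here do not name the Cre driver or the number of animals behind each library. Both groups carry the label telencephalic tissue, and the extraction protocol names cerebral cortex. Each genotype has 1 column of read counts, although the design text speaks of triplicates. No difference below therefore has a replicate check, and the bracketed intervals (95%, exact, by the method of Clopper and Pearson for the share of a gene's reads in each library) cover counting error only. Where 2 read counts are set against each other, the control comes first.

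Dividing cells of the embryonic forebrain are radial glia at the ventricular surface and intermediate progenitors above them, and neurons have left the cycle. Messenger RNAs of mitotic genes accumulate in G2 and M and decline as cells enter G1, so in bulk tissue their level depends on how many cells are cycling and on how much of each transcript a cycling cell holds. Fewer such cells and less RNA per cell cannot be told apart here. In quiescent cells the DREAM complex represses these genes, and in G2 the activator proteins B-Myb and FoxM1 act on them, partly through promoter elements called CHR (cell cycle genes homology region) and through CCAAT boxes bound by the factor NF-Y.

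Promoters of these genes are shown because the same short elements recur in them. RefSeq promoter windows on GRCm38.p6, each covering 250 bases before and 50 bases after a start site, matched 38 of the 47 genes in 41 windows, 3 genes having 2 windows each. The sequences below run 5′ to 3′ on the strand of the gene and hold bases before the start site that lie in no annotated exon. Capitals mark matches on either strand to the letters TTTGAA, called the CHR below. They also mark a variant of the CHR with the letters TTTAAA, and the CCAAT box. No match shares letters with a match to another of the 3 motifs in these stretches. The first 4 are the genes with the most reads that had a CHR or its variant in the window, and Ccnb2 was added after its values were seen.
Mki67: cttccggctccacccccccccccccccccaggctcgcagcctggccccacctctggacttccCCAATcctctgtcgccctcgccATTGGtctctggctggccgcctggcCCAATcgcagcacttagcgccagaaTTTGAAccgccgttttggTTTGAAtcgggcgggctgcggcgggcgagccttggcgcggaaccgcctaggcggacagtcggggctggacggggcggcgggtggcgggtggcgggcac
Top2a: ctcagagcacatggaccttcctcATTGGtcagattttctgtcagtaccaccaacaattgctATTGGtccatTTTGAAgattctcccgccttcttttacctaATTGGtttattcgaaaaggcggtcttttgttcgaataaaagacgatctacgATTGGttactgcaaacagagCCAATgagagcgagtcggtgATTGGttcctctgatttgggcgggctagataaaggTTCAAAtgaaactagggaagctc
Ncapd2: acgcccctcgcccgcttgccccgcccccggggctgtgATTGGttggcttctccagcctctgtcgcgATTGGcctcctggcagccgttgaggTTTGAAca
Cenpf: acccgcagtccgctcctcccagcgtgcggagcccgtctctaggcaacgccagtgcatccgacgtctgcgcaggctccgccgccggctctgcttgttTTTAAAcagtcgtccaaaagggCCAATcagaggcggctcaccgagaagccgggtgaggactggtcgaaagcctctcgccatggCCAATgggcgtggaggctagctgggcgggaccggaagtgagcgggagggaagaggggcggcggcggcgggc
Ccnb2: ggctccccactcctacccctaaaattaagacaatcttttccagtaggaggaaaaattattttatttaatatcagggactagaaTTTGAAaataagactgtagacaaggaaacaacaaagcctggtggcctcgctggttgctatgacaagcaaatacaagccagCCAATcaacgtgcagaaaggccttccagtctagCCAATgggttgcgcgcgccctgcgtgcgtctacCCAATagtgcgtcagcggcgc
All 5 lie on the minus strand. Mki67 is shown from chr7:135716380-135716629, Top2a from chr11:99024190-99024439 and Ncapd2 from chr6:125191702-125191800. Cenpf is shown from chr1:189688087-189688336 and Ccnb2 from chr9:70421555-70421804. The promoter of Ccnb2 has 3 CCAAT boxes, at -87, -54 and -21 counted from the start site as 0, and neighbouring boxes are 33 bases apart. Its second CHR match, beginning at 4, lies after the start site and is not printed. The same holds for the CHR match of Cenpf, beginning at 2, whose printed match is the variant. A further CCAAT box of Ncapd2, beginning at -48, lies before the start site but outside the printed stretch.

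The CHR recurred in most of these promoters, including those of Cdk1, Cdc20, Ube2c, Plk1, Kif11 and Bub1b. The CHR occurred in 30 of the 41 windows (73.2%), against 17.9% of all 32851 windows of the same length, 11.1% of 36 windows of DNA replication genes and 38.0% of 137 windows of 6 further lists of mitotic genes. Counting windows with the CHR or its variant, the shares were 82.9% for the 47 genes, 27.6% for all windows, 9 of 36 for DNA replication genes and 43.8% for the further mitotic genes. A CCAAT box occurred in 75.6% of the windows and in 37.4% of all windows. Other lists also exceeded that share, with 58.3% for DNA replication genes, 57.7% for the further mitotic genes, 68.8% of 16 windows of neuronal genes and 14 of 28 windows of radial glia genes. At least 2 copies occurred in 53.7% of the windows of the 47 genes, in 11.7% of all, in 33.3% for DNA replication genes and in 29.2% for the further mitotic genes. Windows with both kinds of element made up 68.3% of those of the 47 genes, 10.7% of all, 16.7% for DNA replication genes and 29.9% for the further mitotic genes. A match is a description of the sequence and not a bound site. Of the 38 genes, Bub1, Cdc25b, Mad2l1, Nek2, Nuf2, Nusap1 and Pttg1 had neither the CHR nor its variant in the window.

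**Figure D1:**
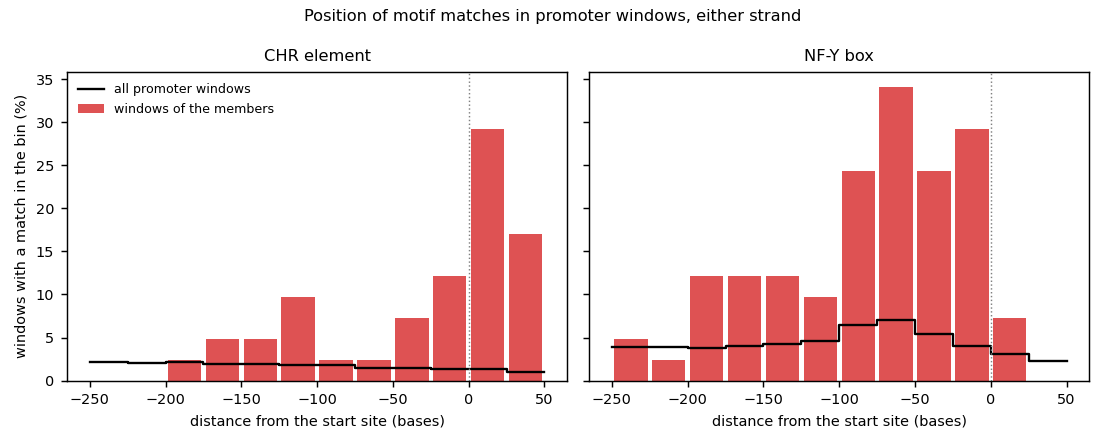
Share of promoter windows (y axis, percent) with a match in each 25-base bin (x axis, distance from the start site in bases), for the CHR (left) and the CCAAT box that NF-Y binds (right). Red bars are the 41 windows of the mitotic genes and the black line is all 32851 windows. The tallest CHR bar covers the first 25 bases from the start site on, with 12 of 41 windows, and the tallest CCAAT bar lies 75 to 51 bases before it, with 14 of 41.

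The 2 elements lay at different distances from the start site. In the bin from 0 to 24 bases, the CHR began in 29.3% of the windows of the mitotic genes and in 1.31% of all windows. For the CCAAT box, the highest share was 34.1%, in the bin from -75 to -51, where all windows had 6.99%. Over the 4 bins from -100 to -1 the CCAAT box began in 24.4% to 34.1% of the windows of the mitotic genes, and the CHR in 2.44% to 12.2%.

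The targeted gene H2afz had 1152 against 535 reads. On the log2 scale the knockout was at -1.16 relative to the control (-1.31 to -1.01) after scaling of the libraries by TMM, a trimmed mean of ratios. Ratios below are log2 ratios of knockout to control on this scale, unless a fold is named. Total reads in genes were 8474545 against 9028523. The genes of mitosis and G2 were level beside it. Together they had 33327 against 35405 reads, a log2 ratio of their scaled sum of 0.031 (0.0091 to 0.052), or 1.02-fold. Scaled sums lay at 0.035 over all measured genes and at 0.030 over genes in the read range of the 47. The distance of 0.031 from 0 is therefore not particular to these genes. The median of the 47 log2 ratios was 0.014, beside 0.0018 over all measured genes and 0.0080 over the 11114 genes whose summed reads lay in the range of these genes, from 101 to 7534. Ratios above 0 numbered 24 and those below 23, and with scaling by library totals 18 and 29. That scaling shifts every gene alike, by -0.035, and 42.7% of all measured genes then lay above 0, beside 50.4% with TMM. With library totals the scaled sum of the 47 genes lay at -0.0041, so its side of 0 depends on the scaling.

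Of the 47 genes, 0 were higher by 1.5-fold or more in the knockout library, beside 3.52% of measured genes, and 1, Pttg1, was lower by that much, beside 5.43% of measured genes. Among genes in the same read range, 3.24% were at least 1.5-fold apart either way. The interval lay wholly above 0 for 4 of the 47 genes, beside 12.5% of measured genes, and wholly below 0 for 1, beside 9.30%. These 5 are 10.6% of the 47, where the share either way was 23.0% among genes in the same read range. With library totals the counts above and below 0 were 4 and 4, beside 8.99% and 12.4% of measured genes under that scaling. Scaled to radial glia reads they were 10 and 1, beside 21.1% and 5.53%. For 45 genes the whole interval lay inside a 1.5-fold difference either way, which is 95.7% of them beside 80.8% of genes in the same read range. The 2 exceptions were Pttg1 and Nek2. Genes were matched on the range of reads only, and intervals widen with fewer reads, so these shares also depend on depth. The standard deviation of the 47 ratios was 0.16, and 0.12 without Pttg1, while genes in the same read range had 0.30. The latter includes extremes of -8.97 and 5.76, with none removed. Quartiles were less different, at -0.080 and 0.066 for the 47 and -0.109 and 0.112 for genes in the same read range.

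**Figure D2:**
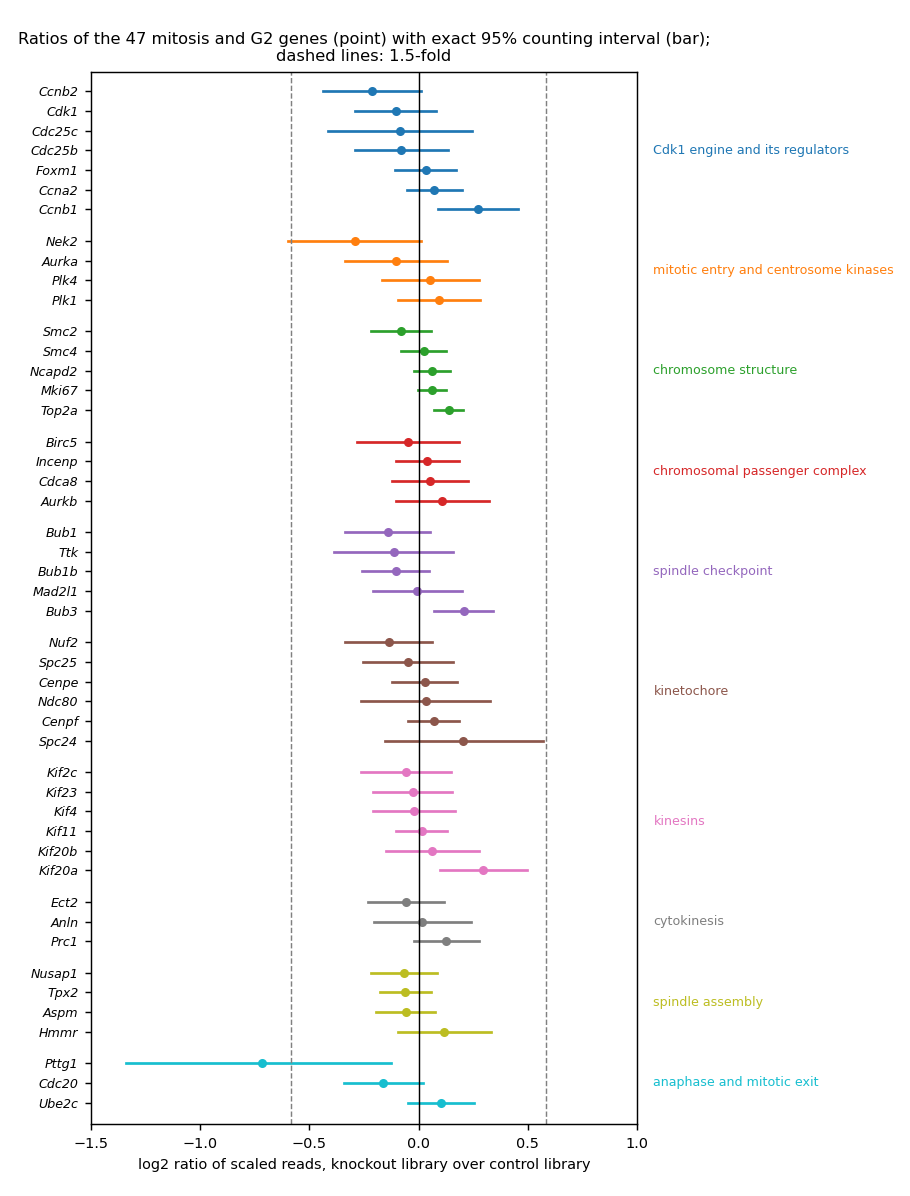
Log2 ratio of scaled reads, knockout over control library (x axis), for each of the 47 genes (rows, grouped and coloured by role), with points for the ratio, bars for the exact 95% counting interval and dashed lines at 1.5-fold. Pttg1 is the single point beyond a dashed line, and the intervals of Top2a, Bub3, Ccnb1 and Kif20a lie wholly above 0.

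Genes of the Cdk1 engine carry cells from G2 into mitosis. Cdk1, the mitotic kinase itself, had 489 against 473 reads, with a log2 ratio of -0.10 (-0.29 to 0.081). Ccna2, which encodes cyclin A2 of S and G2 phase, had 972 against 1063 reads and a ratio of 0.073 (-0.054 to 0.20). Both were less than 1.1-fold apart. Ccnb1, the gene of cyclin B1, had 445 against 559 reads and was the second highest of the 47, at 0.27 (0.09 to 0.46). Ccnb2, the gene of cyclin B2, had 349 against 313 reads, with a ratio of -0.21 (-0.44 to 0.011). The B-type cyclins thus lay on opposite sides of 0, and the interval excluded 0 for Ccnb1 but reached it for Ccnb2. The phosphatase genes Cdc25b and Cdc25c, whose products activate Cdk1, had 370 against 364 and 157 against 154 reads, ratios of -0.08 and -0.084. Foxm1, the transcription factor gene of the G2 program, had 804 against 855 reads, a ratio of 0.032 (-0.11 to 0.17).

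The balance of the B-type cyclins within each library does not depend on the scaling. Ccnb1 had 1.28 reads per read of Ccnb2 in the control and 1.79 in the knockout, a ratio of ratios of 1.40 (1.14 to 1.71). Of 10 such pairs of related genes, compared after their values were seen, the interval excluded 1 for this pair and for Ccna2 and Ccnb2, at 1.22 (1.02 to 1.46). Aurka and Aurkb were at 0.863 (0.693 to 1.08), and Kif20a and Kif20b at 1.18 (0.959 to 1.44). Ccnb2-ps, an annotated pseudogene copy of Ccnb2, had 110 against 108 reads. How reads that match both were counted is not stated in the sources used here. With the reads of Ccnb2-ps added to those of Ccnb2, the cyclin pair was at 1.37 (1.14 to 1.65).

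Kinases of mitotic entry and the centrosome were close to level. Plk1, the polo-like kinase of mitotic entry and spindle formation, had 446 against 495 reads, a log2 ratio of 0.094 (-0.094 to 0.28). Plk4, which starts centriole duplication, had 326 against 352 reads and Aurka, the kinase of spindle poles, 314 against 304, with ratios of 0.054 and -0.10. Nek2, a kinase of centrosome separation, had 198 against 168 reads, the lowest ratio after that of Pttg1 at -0.29 (-0.60 to 0.01). Its interval reached 0 and also reached past a 1.5-fold lower level, so this depth separates it neither from no difference nor from a 1.5-fold one.

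Of the chromosome structure genes, Mki67, Top2a, Ncapd2 and Smc4 had the most reads of the 47 and the narrowest intervals. Mki67 encodes Ki-67, the coat protein of mitotic chromosomes used as a proliferation marker. It had 3613 against 3921 reads, a log2 ratio of 0.061 (-0.0041 to 0.13). Top2a, the gene of topoisomerase II alpha, which untangles sister chromatids, had 3261 against 3729 reads and lay at 0.14 (0.069 to 0.21), or 1.10-fold higher in the knockout library. In the authors' deposited table, Top2a was the single gene of the 47 with an adjusted p-value under 0.05, at 0.0422, beside 9.79% of measured genes, and it was not marked there as significant. In the authors' deposited table that mark stood at 0 of the 47 and at 1.61% of all listed genes. How that p-value was computed is not stated in the labels or file header, and it compares 1 library with 1 library. The condensin genes Smc2, Smc4 and Ncapd2, which encode parts of the ring that compacts chromosomes, had 876 against 862, 1498 against 1584 and 2378 against 2580 reads. Their ratios were -0.08, 0.024 and 0.061, all with intervals that included 0.

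The chromosomal passenger complex, which corrects faulty attachments of chromosomes and later acts in cytokinesis, was level in its 4 subunits. Aurkb, its kinase, had 346 against 388 reads, Incenp, its scaffold, 772 against 825, Birc5, which encodes survivin, 306 against 308, and Cdca8, which encodes borealin, 523 against 564. Log2 ratios ran from -0.047 for Birc5 to 0.11 for Aurkb, and the scaled sum of the 4 was at 0.042 (-0.048 to 0.13).

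Spindle checkpoint genes hold anaphase until every chromosome is attached. Of 5, 4 lay below 0, with intervals that included 0. Bub1 and Bub1b, kinase-family genes of the checkpoint, had 454 against 428 and 721 against 697 reads, log2 ratios of -0.14 and -0.11. Ttk, the gene of the Mps1 kinase, had 228 against 219 reads and a ratio of -0.11. Mad2l1, whose product inhibits Cdc20, had 389 against 403 reads, a ratio of -0.0056 (-0.21 to 0.20). Bub3 stood on the other side, with 821 against 985 reads and 0.21 (0.071 to 0.34), or 1.15-fold higher. Its protein recruits Bub1 and Bub1b to kinetochores.

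Kinetochore genes, whose products join microtubules to centromeres, had 6 intervals that all included 0. The 4 subunits of the Ndc80 complex had 187 against 199 reads for Ndc80, 421 against 398 for Nuf2, 120 against 144 for Spc24 and 386 against 388 for Spc25. Spc24 had the highest ratio of the 4, at 0.21 (-0.15 to 0.57), and Nuf2 the lowest, at -0.14 (-0.34 to 0.064). Cenpe, a kinetochore motor gene, had 733 against 777 reads and Cenpf, the gene of a large kinetochore and nuclear matrix protein, 1162 against 1268, with ratios of 0.028 and 0.069.

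Among kinesins, the motors of the spindle, Kif20a was furthest apart and the highest of all 47 genes. Kif20a works in the central spindle and had 368 against 470 reads, a log2 ratio of 0.30 (0.10 to 0.50), or 1.23-fold higher in the knockout library. Its exons share 1271 of 4338 bases (29.3%) with exons of Cdc23 on the opposite strand, and Cdc23, an anaphase-promoting complex gene, was at 0.16 (0.037 to 0.28) with 1077 against 1248 reads. The labels do not say whether counting used strand or how reads in shared exons were counted. The effect of the overlap on the reads of Kif20a was not tested. In all, exons of 15 of the 47 genes overlap another gene, with the next largest shares in Ube2c (22.8%), Kif4 (15.1%) and Cdc25c (12.7%), and the median without these 15 was -0.017. The other 5 kinesin genes lay within 0.07 of 0. Kif11, the motor that pushes spindle poles apart, had 1175 against 1234 reads and Kif23, the motor of the midzone complex centralspindlin, 498 against 508. Kif2c, which depolymerises microtubules at centromeres, had 387 against 387 reads, the chromokinesin gene Kif4 462 against 474 and Kif20b, a cytokinesis kinesin gene, 349 against 379.

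Cytokinesis and spindle assembly genes were level. Prc1, which bundles midzone microtubules, had 698 against 792 reads, a log2 ratio of 0.13 (-0.023 to 0.27). Rccd1, which overlaps 11.1% of its exon bases on the opposite strand, had 206 against 150 reads and -0.51 (-0.83 to -0.20). Anln, the gene of the contractile ring protein anillin, had 330 against 347 reads and Ect2, the activator of RhoA at the cleavage site, 548 against 548. Of the spindle assembly genes, Tpx2, an activator of Aurka, had 1223 against 1220 reads and Aspm, a spindle pole gene whose loss causes microcephaly, 893 against 891. Nusap1 and Hmmr, which encode microtubule-binding spindle proteins, had 718 against 712 and 346 against 390 reads. Ratios of these 7 genes lay between -0.069 for Nusap1 and 0.13 for Prc1. Tpx2 and Aspm had nearly equal ratios, at -0.06 (-0.18 to 0.056) and -0.06 (-0.20 to 0.076).

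Pttg1, the gene of securin, was the single gene at least 1.5-fold apart. Securin holds the protease separase inactive until the anaphase-promoting complex marks it for destruction. The gene lies on chromosome 11 from 43420250 to 43426251 in the deposited table and had 62 against 39 reads. That is 1.65-fold lower, at a log2 ratio of -0.72 (-1.34 to -0.12), with the widest interval of the 47. Pttg1 also had the fewest reads, and its interval reaches to a difference of less than 1.1-fold. In the authors' deposited table its adjusted p-value was 0.0889. The other genes of anaphase and exit did not share its ratio: Cdc20, the activator of the anaphase-promoting complex, had 524 against 487 reads at -0.16 (-0.34 to 0.019), and Ube2c, its ubiquitin-conjugating enzyme, 681 against 760 at 0.10 (-0.049 to 0.25).

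The levels of these genes, as scaled CPM per kilobase of exon, spanned a 15.6-fold range and kept nearly the same order in both libraries. By the mean of both libraries Ncapd2 was highest, at 44.2 and 46.2 for control and knockout, followed by Top2a at 42.2 and 46.4 and Mki67 at 41.9 and 43.7. Lowest were Pttg1 at 3.61 and 2.19, Ndc80 at 3.36 and 3.44 and Cdc25c at 3.72 and 3.51. The order depends on the length used: with the longest transcript in place of all exon bases Top2a was highest, at 72.8 and 80.1, above Ncapd2 at 59.9 and 62.5. The median over the 47 genes was 11.6, beside 6.28 over 14321 measured genes with a length, and 37 of the 47 lay above that median. Within the Ndc80 complex the level of Spc25 was the highest, at 14.1 and 13.6, and that of Ndc80 the lowest, although the proteins work as equal partners. Between the libraries 40 of 47 genes moved by at most 2 places in the order of levels, and the largest move was 8 places. The level of Ccnb2, 26.6 and 22.9, was above that of Ccnb1, 12.3 and 14.9, in both libraries, whereas Ccnb1 had more reads, over 4217 bases of exon beside 1531. With the longest transcript as length Ccnb1 was at 20.8 and 25.2, so that in the knockout library it lay above Ccnb2.

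**Figure D3:**
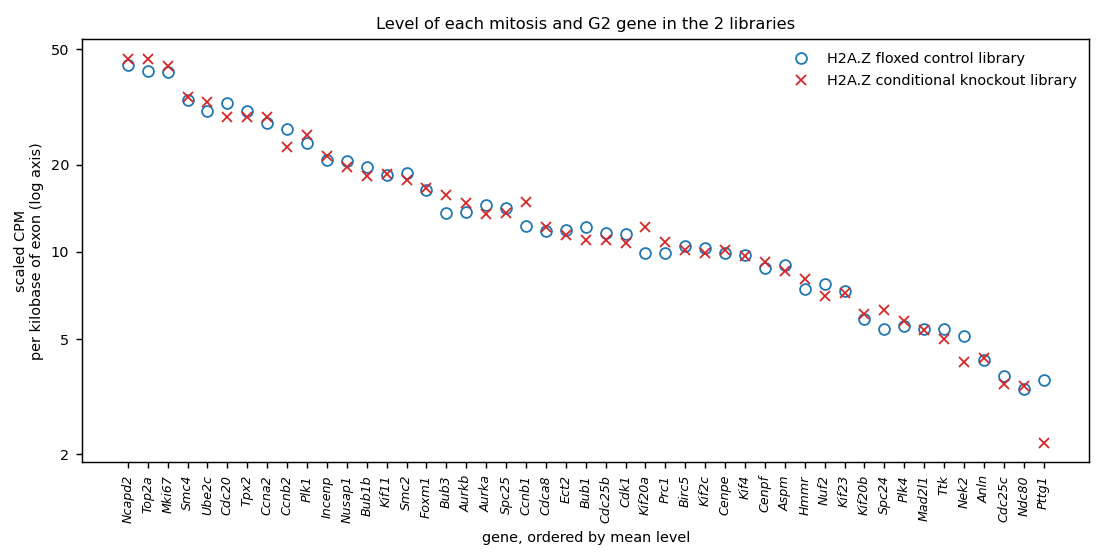
Level of each gene (x axis, ordered by the mean) in scaled CPM per kilobase of exon (y axis, log scale), with circles for the control library and crosses for the knockout library. Circles and crosses lie close together from Ncapd2, at 44.2 and 46.2, down to Ndc80, and are furthest apart at Pttg1.

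Other genes of the same process were also level. In 6 further lists of mitotic genes, 140 of 140 genes were measured, 0 were at least 1.5-fold higher and 1 lower, and the median log2 ratio was 0.0092. The lower gene was Cenpw, a small centromere gene, with 64 against 40 reads and -0.73 (-1.34 to -0.14), close to the values of Pttg1. On the same list of 36 kinetochore and centromere genes, Oip5, which helps load centromeric histone, had 47 against 69 reads and 0.49 (-0.058 to 1.06), and Cenph and Cenpn were at -0.29 and 0.26. Of 36 further kinesin, spindle and cytokinesis genes, 0 were apart, with ends at -0.24 for the centriole gene Sass6 and 0.29 for the spindle gene Troap. The anaphase-promoting complex list had a median of -0.031 over 18 genes. Its inhibitor gene Fbxo5, which encodes Emi1, had 169 against 242 reads and the highest ratio, 0.46 (0.17 to 0.75), and Ube2s, its chain-extending enzyme gene, had 1467 against 1800 and 0.24 (0.14 to 0.34). For both, the interval excluded 0, below the 1.5-fold limit.

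Condensin and cohesin genes outside the 47 had a median of 0.022 over 18 genes, from -0.18 for Ncapg2 to 0.22 for Ncapg, both condensin subunit genes. The control of mitotic entry had a median of 0.086 over 14 genes, from -0.23 for Cks2 to 0.24 for Cks1b, which encode small partners of Cdk1. The list of DREAM, MuvB and B-Myb genes also holds further genes of the E2F and Rb families and their partners. Of its 18 genes, 18 were measured and 0 were 1.5-fold apart. With 3.52% of measured genes higher and 5.43% lower by that much, a list this short may hold none. Tfdp2, a dimer partner of E2F proteins, had 769 against 657 reads and -0.28 (-0.44 to -0.13). E2f4, the gene of an E2F subunit of DREAM, had 479 against 426 and -0.23 (-0.42 to -0.034). E2f5, its close relative, was on the other side at 0.29 (0.019 to 0.57). A wider set was the deposited annotation term for cell division, chosen after values were seen: without the 47 genes it held 282 measured genes, with 2 at least 1.5-fold higher, 5 lower and a median of 0.0041.

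DNA replication genes, which act before mitosis, had a median log2 ratio of -0.041 over 40 measured genes. Of these, 1 was at least 1.5-fold higher and 0 lower, beside 3.52% and 5.43% of measured genes. The higher gene was Fen1, a flap endonuclease gene, with only 15 against 31 reads. Dut, the dUTPase gene, was at 0.27 (0.10 to 0.46) and Gins3, a helicase subunit gene, at -0.45 (-0.90 to -0.0077). The scaled sum of the 40 genes had a ratio of 0.0034 (-0.026 to 0.033), beside 0.031 for the mitotic genes and 0.035 over all measured genes. Of 14 measured genes of G1 and cell cycle exit, 0 were apart, which a list this short may give at these shares. Ccnd1, the cyclin D1 gene, had 484 against 678 reads and the highest ratio, 0.43 (0.26 to 0.60), while Ccnd3, the cyclin D3 gene, had 292 against 250 and -0.28 (-0.53 to -0.032). Cdkn1a, the gene of the inhibitor p21, had 109 against 144 reads and 0.34 (-0.024 to 0.72).

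**Figure D4:**
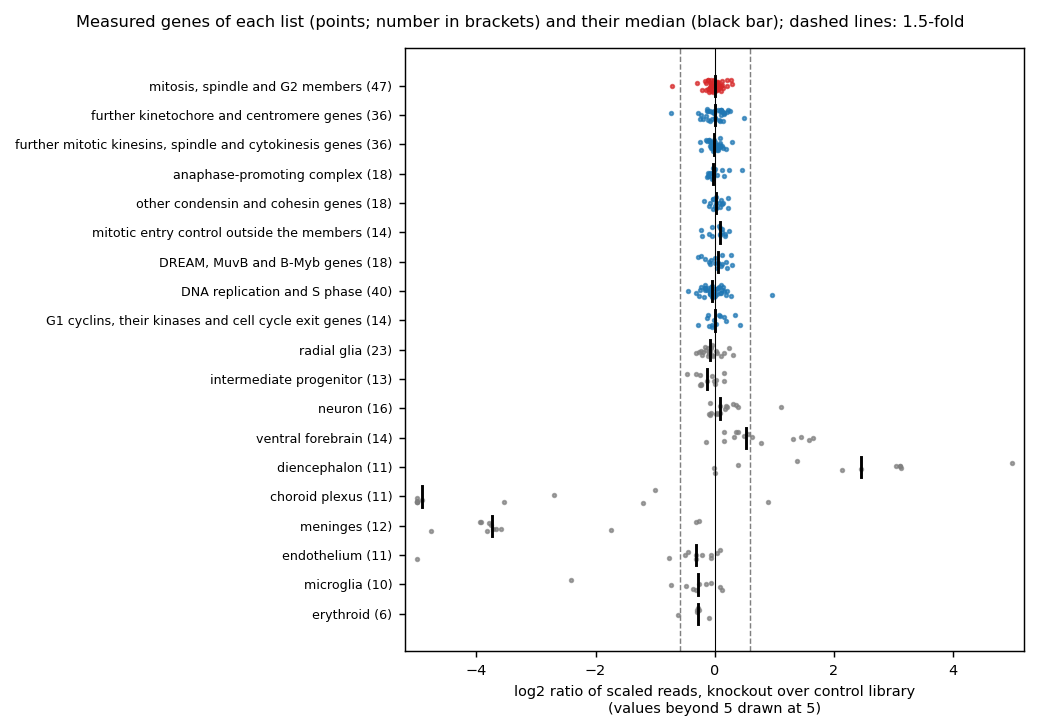
Log2 ratio of scaled reads, knockout over control library (x axis), for measured genes of each list (rows; red, the 47 genes; blue, other cell cycle lists; grey, cell type markers), with the median as a black bar and dashed lines at 1.5-fold. The medians of the 47 genes and the 8 cell cycle lists lie between -0.041 and 0.086, whereas the choroid plexus and meningeal medians lie at -4.91 and -3.74 and the diencephalic median at 2.46.

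The libraries differed by far more in markers of several cell types. The progenitor lists were slightly lower in the knockout library: the median log2 ratio of 23 radial glia genes was -0.082, with Dbi at -0.27 and Sox2 at 0.30, and that of 13 intermediate progenitor genes -0.13. Their scaled sums were at -0.066 (-0.086 to -0.045) and -0.079 (-0.12 to -0.042), beside 0.035 over all measured genes. The 47 mitotic genes were also scaled to the summed reads of the radial glia genes instead of by TMM. Of them, 33 then lay above 0 and 14 below, with a median of 0.080. Again 0 were 1.5-fold higher and 1 lower, beside 601 and 674 of 14366 measured genes. This scaling raises every ratio by 0.066, and the median of all measured genes was then 0.067, with 63.5% of them above 0. Neuronal genes had a median of 0.088. Lower by 1.5-fold or more were 10 of 11 choroid plexus genes and 10 of 12 meningeal genes, beside 5.43% of measured genes. Higher by that much were 6 of 14 ventral forebrain genes and 8 of 11 diencephalic genes, beside 3.52% of measured genes. Endothelial, microglial and erythroid lists had medians of -0.31, -0.29 and -0.29. These lists include cell types that divide, and their part in the level of the mitotic genes was not tested.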

How the data were processed

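Read counts per gene, 1 column per genotype, were deposited by the authors as raw values per the file headers. The authors also deposited CPM values (each count over a constant per library, with 0 entered as 0.5 read), their control to knockout ratio, its log2 value, and p-values of an unstated test. Per the submitters' processing notes, Bowtie2 2.2.3, TopHat2 2.0.12, HTSeq 0.6.0 and build mm9 were used. The table's positions overlapped those of GENCODE M21 on GRCm38 for all 47 genes and were identical for 36, so coordinates are given as GRCm38. Of 19720 identifiers, 19616 matched M21, the source of symbols and exon lengths.

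Counts were scaled by TMM in edgeR 4.0.16 (R 4.3.3). Log2 ratios used a prior of 0.5 read and a gene was measured with at least 20 summed reads. With 1 library per genotype no test was made. Intervals are exact 95% Clopper-Pearson intervals. The calculation was tested on simulated counts that held counting error only. That test therefore does not cover differences between animals or libraries. Alternatives were library totals, DESeq2 1.42.0 size factors, upper quartiles, radial glia reads, a prior of 5, other minimums and folds, the mean, and the longest transcript. Genes named are the 47 and, of each related list, up to 2 furthest from 0 each way; Ccnb2-ps, Cdc23 and Rccd1 were added later. The rule for the 47 uses no measured value, but the genes and lists were drawn up with earlier results of these data known. Other steps ran in Python 3.11.15 with scipy 1.17.1.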

Additional observations from a re-analysis of the deposited data

How the results depend on the processing

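The count of genes at least 1.5-fold apart was 1 under each scaling and prior tried. The scalings shift every log2 ratio alike, by at most 0.066, and could not change this count. Pttg1 lay at -0.72 and the next furthest gene, Kif20a, at 0.30, with the limit at 0.585 either way. The count was also 1 without the 15 genes whose exons overlap another gene, an alternative chosen after seeing the data. The read minimums tried, none and 100, could not change the count, because each of the 47 genes had at least 101 summed reads. At 2-fold the count was 0 and at 1.2-fold 4, and the shares of all measured genes at these folds were not computed. The median log2 ratio of 0.014 moved to -0.021 with library totals, 0.038 with DESeq2 size factors, 0.080 with radial glia reads, -0.011 as a mean and -0.017 without overlapping genes, so its sign depends on these choices. The scaled sum moved to -0.0041, 0.054 and 0.096 with the first 3 of these. Shifts set by the scaling reach all genes alike, and none moved the median of all measured genes by over 0.1. The mean and the median without overlapping genes kept the TMM scaling, so their moves are not such shifts. Of the 47 single ratios, 46 stayed inside their main interval under every scaling and prior, and Mki67 left it with radial glia reads. For the scalings this outcome was set by the width of each interval, since all ratios shift by the same amount. Levels per kilobase moved beyond counting error for 40 of 47 genes with the longest transcript as length. No paired analysis was possible because each genotype has 1 library. Depth limits the intervals, which are widest for Pttg1 with 101 summed reads.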
